A study of Mus musculus with 6 samples.

Results

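Vascular endothelium, the cell layer that lines blood vessels, was followed through 10 of its marker genes in retinas of wild-type mice and of mice carrying the C234W substitution in Elovl2. The 10 members were taken by symbol from the deposited table of 25124 gene models: Pecam1, Cdh5, Esam, Kdr, Flt1, Tek, Tie1, Cldn5, Vwf and Eng. All 10 were found, each as 1 gene model, and all 10 passed the filter on low counts that left 14685 genes for testing. Poly-A RNA of whole retinas was sequenced in 6 libraries: 3 from wild-type C57BL/6J mice and 3 from C57BL/6J mice with the genotype Elovl2(C234W), all 4 months old. Elovl2 is an elongase of long-chain polyunsaturated fatty acids. The labels state neither whether the substitution is present on one or both alleles nor whether each library came from a separate animal. The p-values therefore measure only the spread between these samples, which may be technical. The wild-type libraries are WT1A, WT2A and WT2B. The C234W libraries are FS3A, FS3B and FS5A, a prefix the labels do not explain. They were assigned by elimination, and the direction of every difference rests on that assignment. The level of Elovl2 RNA cannot check it, since the change is a substitution.

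The retina is fed by 2 vascular beds, vessels within its inner layers and the choroid behind the pigment epithelium. Endothelial cells of the inner vessels are sealed by tight and adherens junctions and form the inner blood-retina barrier. Their growth and quiescence are set by 2 families of receptor tyrosine kinases, the VEGF receptors and the Tie receptors, and endoglin serves as a co-receptor for ligands of the BMP and TGF-beta family. Some of these genes are also used outside vessels. Kdr, for example, is known from neural cells of the retina as well, and Vwf and Pecam1 from platelets.

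The libraries held between 14184093 and 19298613 counts in genes. Rod markers summed to between 72500 and 168900 CPM, the count of a gene scaled to library size with TMM factors. The 10 endothelial genes together made up 198 to 228 CPM in the wild-type libraries and 282 to 352 CPM in the C234W libraries, most of it Flt1 and Kdr. In such whole tissue, fewer cells of a type and less RNA per cell cannot be told apart. One library stood apart for these genes. WT1A had the lowest level of 8 of the 10 members, and each C234W library was above WT1A for 10 of 10. The same shares over all tested genes are not given, so this pattern may not be particular to endothelial genes. Summed markers of pigment epithelium reached 795 CPM in WT1A, against 99.5 to 201 CPM in the other 5 libraries, and WT1A also had the most rod marker RNA, 168900 CPM. The part of these differences in the endothelial values was not tested. Each member's fold change is therefore given below with and without WT1A, and so are the calls of the other gene lists. Without WT1A, wild type is WT2A and WT2B alone. Their names share a number, and they were the most alike pair of libraries. The labels do not say whether they came from the same animal, so calls without WT1A may rest on technical spread.

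None of the 10 genes passed the test for a difference between genotypes. In the edgeR quasi-likelihood test, adjusted by Benjamini-Hochberg over all genes tested, 0 of 10 members were under the threshold of 0.05, while 3 were under an unadjusted p of 0.05. Over all tested genes the calls were 1.46% (215 genes) and 25.4%. DESeq2 called 3 members higher in C234W, Pecam1, Esam and Flt1, against 5% of all genes called higher by it, and limma-voom called 0, against 1.63% of all genes in either direction. The same 3 genes were the members whose groups did not overlap, 3 of 10 against 12.6% of all genes not overlapping and higher in C234W. Fitted fold changes were above 0 for 10 of 10 members and for 52% of all genes. The median log2 fold change was 0.57 over the members and 0.02 over all genes tested. Without WT1A the member median was 0.40, and 8 of 10 were above 0.

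**Figure D1:**
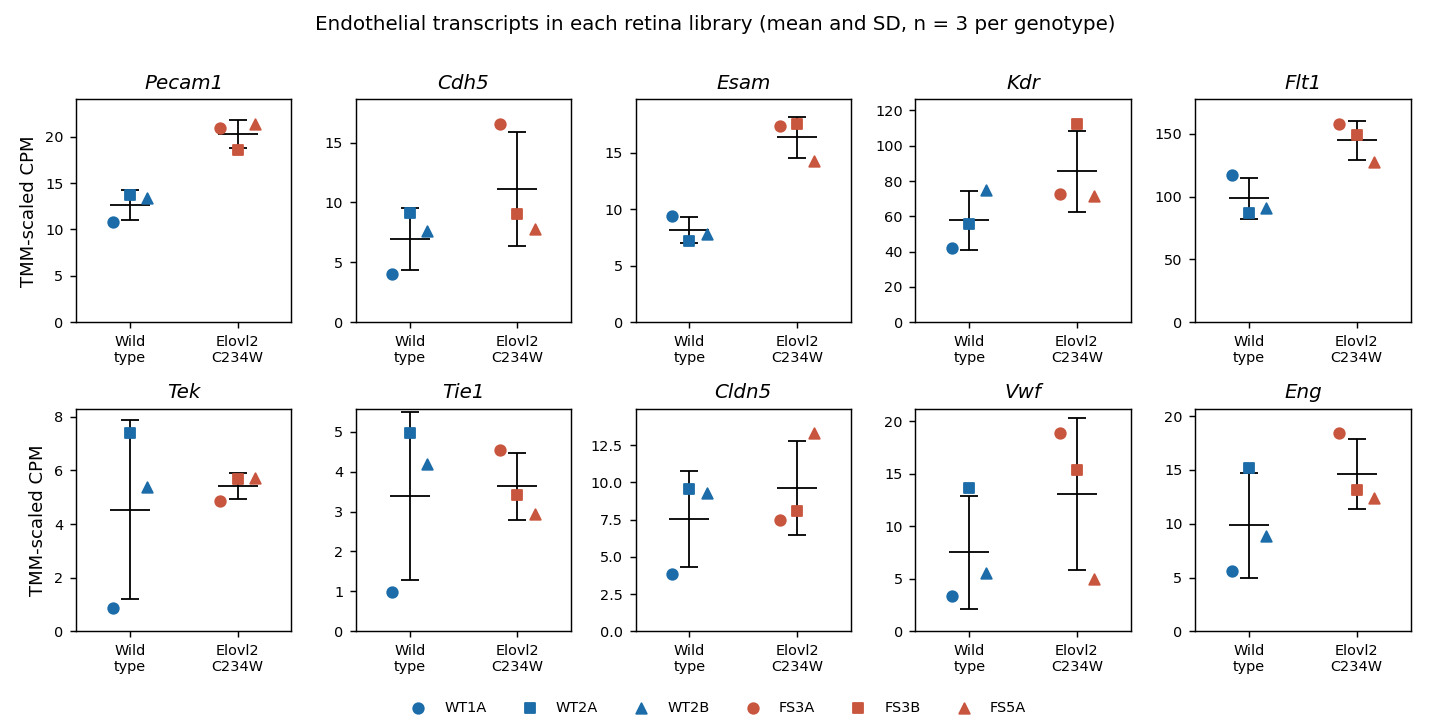
TMM-scaled CPM (y axis, from 0, a separate scale for each gene) of the 10 endothelial genes in wild-type and Elovl2 C234W retinas; symbols are libraries, black bars the mean and SD of 3 libraries. The C234W libraries lie above all wild-type libraries for Pecam1, Esam and Flt1, whereas WT1A is far below the other 5 for Tek and Tie1.

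The VEGF receptors were the most abundant members. Flt1 (VEGFR-1; NM_010228, chromosome 5, 147561604 to 147726011 on mm10, minus strand, 30 exons) binds VEGF-A tightly and is known as a decoy for it. Kdr (VEGFR-2; NM_010612, chromosome 5, 75932827 to 75978455, minus strand, 30 exons) is the main signalling receptor. The library profiles of Flt1 and of the Tie receptor Tek were the least alike among the members, which does not extend to Kdr. To show the sequence just upstream of this pair of VEGF receptors and of the pair of Tie receptors, the 250 bases before each annotated start are printed. They run 5′ to 3′ on the gene's strand, from RefSeq on GRCm38.p6. Capitals mark AGGAAG, or CTTCCT where it lies on the opposite strand, called the ETS-type letters here. They are a flanked form of the shorter core bound by many ETS factors, of which Erg and Fli1 are known endothelial members.
Flt1, chr5:147726012-147726261, minus strand: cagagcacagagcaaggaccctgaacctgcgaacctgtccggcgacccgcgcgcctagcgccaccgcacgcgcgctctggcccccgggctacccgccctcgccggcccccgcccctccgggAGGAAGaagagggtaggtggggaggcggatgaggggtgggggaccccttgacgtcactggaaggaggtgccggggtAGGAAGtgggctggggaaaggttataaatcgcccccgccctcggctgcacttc
Kdr, chr5:75978456-75978705, minus strand: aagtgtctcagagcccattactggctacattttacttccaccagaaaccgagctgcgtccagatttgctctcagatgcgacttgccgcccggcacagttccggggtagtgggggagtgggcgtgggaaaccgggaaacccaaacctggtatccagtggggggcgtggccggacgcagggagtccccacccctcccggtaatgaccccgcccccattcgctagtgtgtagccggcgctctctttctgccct
Tek, chr4:94739039-94739288, plus strand: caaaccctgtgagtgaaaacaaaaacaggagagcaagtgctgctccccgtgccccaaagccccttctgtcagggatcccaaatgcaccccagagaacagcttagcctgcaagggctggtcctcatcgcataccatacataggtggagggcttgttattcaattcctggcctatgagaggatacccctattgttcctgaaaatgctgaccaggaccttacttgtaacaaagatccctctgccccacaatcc
Tie1, chr4:118489850-118490099, minus strand: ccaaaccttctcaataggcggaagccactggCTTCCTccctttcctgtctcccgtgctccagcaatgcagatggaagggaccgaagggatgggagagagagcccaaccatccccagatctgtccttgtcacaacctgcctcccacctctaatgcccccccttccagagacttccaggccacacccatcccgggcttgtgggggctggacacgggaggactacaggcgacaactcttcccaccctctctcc
The window of Flt1 held 2 such matches, starting 129 and 53 bases before the start, and a TATAAA on its own strand 31 bases before it. That of Tie1 held 1, starting 219 bases before the start, and those of Kdr and Tek held 0. Shorter or otherwise flanked forms were not searched for, so 0 does not mean that the core is absent. Among the 6 members with an entry, 3 had the ETS-type letters (Flt1, Tie1 and Eng), 0 had the GATA letters AGATAA or TTATCT, and 1 had TATAAA. The other 4, Pecam1, Cdh5, Esam and Vwf, had no entry and were not examined. Over all 32851 promoter windows of the same length, 29.5% held the ETS-type letters on either strand, 9.99% the GATA letters on either strand and 7.59% TATAAA on the gene's strand. A match is a description of letters, not a binding site.

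Flt1 was measured at 117 CPM in WT1A, 87.3 in WT2A and 91.3 in WT2B, against 158 in FS3A, 149 in FS3B and 127 in FS5A. All C234W libraries were above all wild-type libraries, and WT1A, low for most members, was the highest wild-type library here. The means were 98.6 ± 16.2 CPM in wild type and 144.7 ± 15.7 CPM in C234W (SD, n = 3 each), a log2 fold change of 0.55 (SE 0.17, edgeR adjusted p = 0.0963). Without WT1A it was 0.70 (edgeR adjusted p = 0.0212), a call that 9.13% of all genes tested in that fit shared in the same direction. With each library's trend of expression on transcript length removed, it was 0.27 (edgeR adjusted p = 0.383). Flt1 has a transcript of 6863 bases, against a median of 3020 over the tested genes.

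Kdr was measured at 42.1 CPM in WT1A, 55.6 in WT2A and 75.2 in WT2B, against 72.8 in FS3A, 112 in FS3B and 71.5 in FS5A. The groups overlapped, since WT2B was above FS3A and FS5A, and FS3B stood above the other 5 libraries. The log2 fold change of 0.57 (SE 0.25) did not pass (edgeR adjusted p = 0.199), and without WT1A it was 0.40. Leaving out FS3B gave 0.33, and removing the length trend gave 0.30. Per kilobase of transcript, the ratio of Kdr to Flt1 ran from 0.419 in WT1A to 0.960 in WT2B, with 0.538 to 0.877 in the C234W libraries. The ratio of these receptors thus varied more among wild-type libraries than between the genotype means of 0.707 and 0.690.

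The Tie receptors differed from Flt1 above all in WT1A. Tek (Tie2; NM_013690, chromosome 4, 94739289 to 94874976, plus strand, 23 exons) is the receptor of the angiopoietins. It was measured at 0.863 CPM in WT1A, 7.37 in WT2A and 5.37 in WT2B, against 4.87 in FS3A, 5.69 in FS3B and 5.73 in FS5A. WT1A alone was low, with 13 counts, for which the 95% exact Poisson interval is 0.460 to 1.48 CPM; in WT2B it was 4.21 to 6.75 CPM. These intervals cover counting error only. WT2A was the highest of the 6 libraries. Its log2 fold change was 0.25 (SE 0.58, edgeR adjusted p = 0.816), and it was -0.23 without WT1A (edgeR adjusted p = 0.572). Leaving out WT2A gave 0.81, limma-voom gave 0.69, and removing the length trend gave 0.02.

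Tie1 (NM_011587, chromosome 4, 118471191 to 118489849, minus strand, 23 exons), the orphan partner that modulates Tek, followed the same order in wild type. Its levels were 0.996 CPM in WT1A, 4.95 in WT2A and 4.19 in WT2B, against 4.54 in FS3A, 3.42 in FS3B and 2.93 in FS5A. WT2A was again the highest library and WT1A the lowest, with 15 counts (95% exact Poisson interval 0.558 to 1.64 CPM). The log2 fold change was 0.10 (SE 0.51, edgeR adjusted p = 0.926). It turned negative without WT1A, at -0.33 (edgeR adjusted p = 0.481), and also without FS3A and with the length trend removed, at -0.09 and -0.07. For neither Tie receptor did the data fix a direction.

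**Figure D2:**
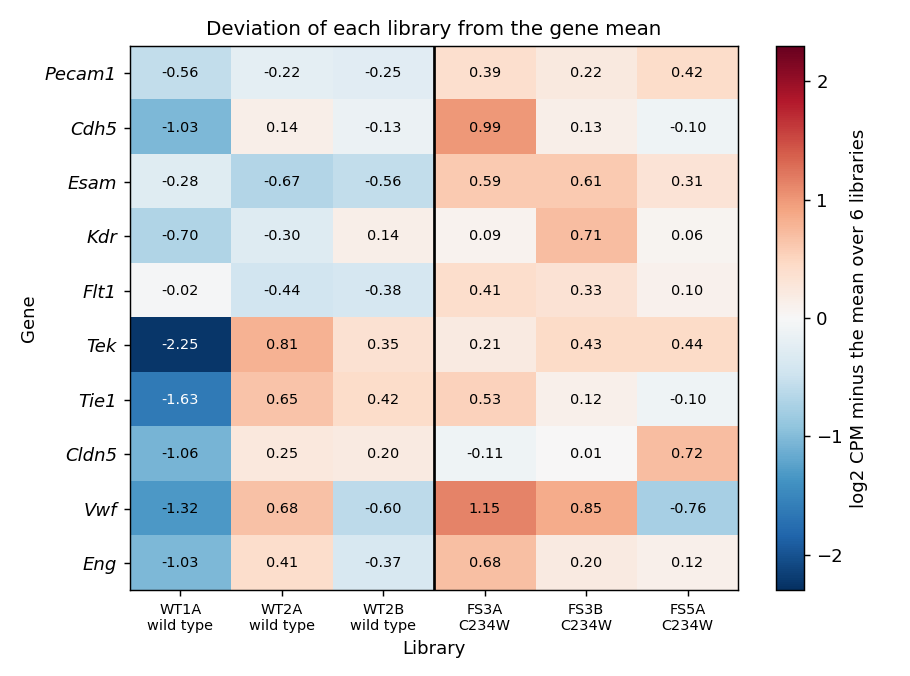
Deviation of each library (columns) from the mean of each gene (rows), in log2 CPM; red is above and blue below the gene's mean over 6 libraries. WT1A deviates by -2.25 for Tek and -1.63 for Tie1 but by only -0.02 for Flt1, and the 3 C234W libraries are above the mean for Pecam1, Esam and Flt1.

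Among adhesion molecules, Esam had the smallest p of the 10. ESAM (NR_136939, chromosome 9, 37528089 to 37538319, plus strand, 7 exons) is an immunoglobulin-family protein of endothelial tight junctions, also found on platelets. The model counted carries the NR_ prefix of non-coding transcripts, unlike the NM_ models of the other members. The GENCODE transcript matched to it is of the protein-coding type. It was measured at 9.43 CPM in WT1A, 7.21 in WT2A and 7.80 in WT2B, against 17.4 in FS3A, 17.6 in FS3B and 14.3 in FS5A. The lowest C234W library was well above the highest wild-type library. The means were 8.15 ± 1.15 CPM and 16.4 ± 1.84 CPM (SD, n = 3 each), a 2.01-fold difference with a log2 fold change of 1.01 (SE 0.21). The edgeR adjusted p of 0.0520 just missed the threshold, and its p ranked 291 among the 14685 tested. With no filter on low counts the adjusted p in edgeR was 0.0466, a call in this direction that 0.423% of genes shared. Over the alternatives, the log2 fold change of Esam stayed between 0.91 and 1.20 while its adjusted p ran from 0.000946 in DESeq2 to 0.382 with same-number libraries summed in edgeR. Without WT1A it was 1.13 (edgeR adjusted p = 0.0156), and with the length trend removed it was 1.08 (edgeR adjusted p = 0.0944).

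Pecam1 (CD31; NM_001305157, chromosome 11, 106654213 to 106715281, minus strand, 16 exons), which joins endothelial cells to each other and to passing leukocytes, had the smallest relative spread within groups (coefficient of variation 12.4% in wild type and 7.29% in C234W). It was measured at 10.8 CPM in WT1A, 13.7 in WT2A and 13.4 in WT2B, against 20.9 in FS3A, 18.6 in FS3B and 21.3 in FS5A. No library of one group reached the range of the other. The means were 12.6 ± 1.57 CPM and 20.3 ± 1.48 CPM (SD, n = 3 each), a log2 fold change of 0.68 (SE 0.19, edgeR adjusted p = 0.0792). Without WT1A it was 0.59 (edgeR adjusted p = 0.0542). Its highest library was 1.97 times its lowest, a range that only Flt1, at 1.81, undercut among the members.

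Cdh5 (VE-cadherin; NM_009868, chromosome 8, 104101625 to 104144502, plus strand, 12 exons), the cadherin of endothelial adherens junctions, was measured at 4.05 CPM in WT1A, 9.15 in WT2A and 7.58 in WT2B, against 16.5 in FS3A, 9.06 in FS3B and 7.74 in FS5A. FS3A alone was high and WT1A alone was low, while the other 4 libraries lay together. The log2 fold change of 0.68 (SE 0.38) did not pass (edgeR adjusted p = 0.289). It was as large as that of Pecam1 with a wider spread among libraries. Without WT1A it was 0.41, and without FS3A it was 0.28 (edgeR adjusted p = 0.730).

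Cldn5 (claudin-5; NM_013805, chromosome 16, 18776847 to 18778262, plus strand, 1 exon) forms the tight junction strands that seal the blood-retina barrier. Its levels were 3.85 CPM in WT1A, 9.58 in WT2A and 9.27 in WT2B, against 7.50 in FS3A, 8.11 in FS3B and 13.3 in FS5A. WT1A was the low library and FS5A the high one, and FS3A and FS3B were below WT2A and WT2B. For Cldn5 the log2 fold change was 0.34 (SE 0.38, edgeR adjusted p = 0.595). It was 0.03 without WT1A and 0.04 without FS5A, but 0.56 without WT2A, 0.54 with the length trend removed and 0.64 with same-number libraries summed. Esam and Cldn5, both of tight junctions, therefore did not keep a fixed ratio: per kilobase it was 1.86 in WT1A, 0.573 in WT2A and 0.640 in WT2B, against 1.76 in FS3A, 1.65 in FS3B and 0.816 in FS5A. The high ratios belonged to libraries of both genotypes.

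Vwf (von Willebrand factor; NM_011708, chromosome 6, 125552948 to 125686679, plus strand, 52 exons) is the secreted protein that tethers platelets and is stored in endothelial granules, most in larger vessels and veins. It was measured at 3.39 CPM in WT1A, 13.6 in WT2A and 5.59 in WT2B, against 18.8 in FS3A, 15.4 in FS3B and 4.999 in FS5A. High and low libraries occurred in both genotypes, and FS5A was below WT2B. A log2 fold change of 0.79 had an SE of 0.57 and did not pass (edgeR adjusted p = 0.407). It was 0.44 without WT1A (edgeR adjusted p = 0.614), 0.43 without FS3A and 0.45 with the length trend removed, but 1.55 without WT2A (edgeR adjusted p = 0.253).

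Eng (endoglin, CD105; NM_001146350, chromosome 2, 32646595 to 32682669, plus strand, 14 exons), the endothelial co-receptor for BMP and TGF-beta ligands, was measured at 5.58 CPM in WT1A, 15.2 in WT2A and 8.83 in WT2B, against 18.4 in FS3A, 13.1 in FS3B and 12.4 in FS5A. WT2A lay within the C234W range. The log2 fold change was 0.57 (SE 0.35, edgeR adjusted p = 0.339). It was 0.29 without WT1A and 0.37 without FS3A, but 1.03 without WT2A (edgeR adjusted p = 0.230). Eng and Cdh5 each overlap a gene model on the opposite strand, Fpgs and Gm29682, and counting used strand.

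**Figure D3:**
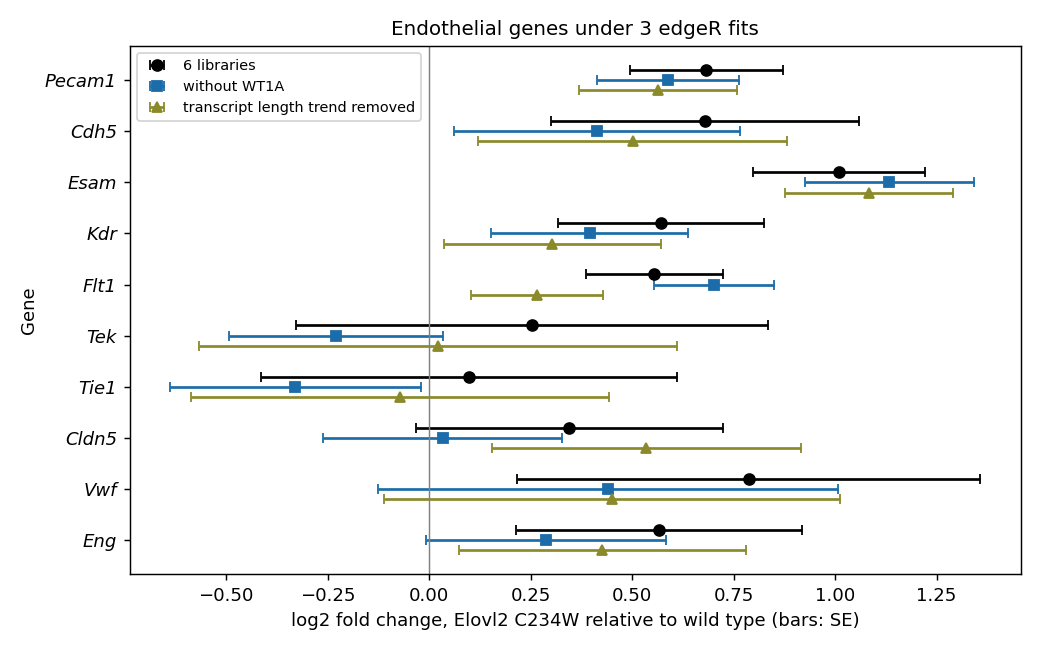
Log2 fold change of each endothelial gene, Elovl2 C234W relative to wild type, with SE bars, in edgeR with 6 libraries (circles), without WT1A (squares) and with the transcript length trend removed (triangles). Esam stays between 1.01 and 1.13 in these 3 fits, Tek and Tie1 lie below 0 without WT1A, and Flt1 drops from 0.55 to 0.27 with the length trend removed.

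Levels were compared between genes per kilobase of transcript. In wild type the order was Flt1 (14.4 ± 2.36 CPM per kilobase), Kdr (9.78 ± 2.83), Cldn5 (5.36 ± 2.28), Esam (4.39 ± 0.62), Pecam1 (3.81 ± 0.47), Eng (2.77 ± 1.37), Cdh5 (1.74 ± 0.66), Tek (0.970 ± 0.71), Tie1 (0.877 ± 0.54) and Vwf (0.858 ± 0.61; SD, n = 3 each). Kdr and Cldn5 were the only neighbours in this order whose wild-type libraries did not overlap. Flt1 was above 67.3% of tested genes on this scale and Vwf above 13.1%. In C234W the mean of Esam (8.82 ± 0.99) stood above Cldn5 (6.82 ± 2.25; SD, n = 3 each), and that of Vwf (1.49 ± 0.82) above Tek (1.16 ± 0.10) and Tie1 (0.942 ± 0.22). The libraries overlapped in each of these pairs, and in FS5A Cldn5 was above Esam, and Tek and Tie1 were above Vwf.

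As a share of the members' summed CPM per kilobase within a library, no member separated the genotypes. Flt1 made up 32.8 ± 9.84% in wild type and 31.0 ± 1.59% in C234W, and Kdr 21.6 ± 4.34% and 21.3 ± 4.77% (SD, n = 3 each). Esam had the largest difference on the log2 scale, 9.98 ± 2.73% against 13.0 ± 0.55% (SD, n = 3 each), and its groups overlapped. The members did not move as a block. Among the 45 pairs, the library profiles of Cdh5 and Eng were most alike, with a root mean square difference of 0.22 in centred log2 CPM over the 6 libraries, followed by Esam and Flt1 (0.23) and Pecam1 and Flt1 (0.28). Flt1 and Tek were least alike (1.10). Esam, Flt1 and Pecam1 were thus close to one another, and Esam and Flt1 were far from Tek.

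Genes that are no members were ranked by nearness to the members' mean profile, by the same measure, among 13942 tested genes with a mean of at least 1 CPM. Pth1r, the parathyroid hormone receptor, came first at 0.13. It was followed by Tgfbr2 (0.15), a receptor for TGF-beta, and by Rgs5 (0.15), a G-protein regulator known as a pericyte marker. A230070E04Rik was at 0.17. Rgs5 was measured at 34.3 CPM in WT1A, 87.6 in WT2A and 57.5 in WT2B, against 111 in FS3A, 79.8 in FS3B and 78.0 in FS5A. As for 8 of the members, WT1A was the lowest library, and FS3A was the highest. That likeness follows from picking Rgs5 by its profile over the same libraries and is no separate result. The groups overlapped for Rgs5 and A230070E04Rik, while for Pth1r and Tgfbr2 all C234W libraries were above all wild-type libraries.

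In the list of VEGF and angiopoietin ligands and co-receptors, 0 of 11 tested genes passed in edgeR, with 3 higher and 1 lower at an unadjusted p under 0.05. DESeq2 called Nrp1 higher and Vegfb lower, limma-voom called 0, and edgeR without WT1A called Vegfb lower. Over all genes, DESeq2 called 5% higher and 7.69% lower, and edgeR without WT1A called 9.13% higher and 9.39% lower. In edgeR with 6 libraries, 25.4% of all genes were under the unadjusted p in either direction. These shares are the background for the lists that follow as well. Nrp1, the neuropilin that presents VEGF-A to Kdr, was measured at 3.85 CPM in WT1A, 4.25 in WT2A and 3.09 in WT2B, against 10.1 in FS3A, 10.4 in FS3B and 5.49 in FS5A (log2 fold change 1.21, SE 0.32, edgeR adjusted p = 0.0703). Vegfb, a ligand of Flt1 and not of Kdr, was at 68.9 CPM in WT1A, 60.5 in WT2A and 65.6 in WT2B, against 47.2 in FS3A, 38.6 in FS3B and 42.4 in FS5A (log2 fold change -0.61, SE 0.15, edgeR adjusted p = 0.0660). The groups did not overlap for either gene, and they lay in opposite directions.

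In the endoglin and BMP/TGF-beta list 0 of 19 passed in edgeR, with 1 at an unadjusted p under 0.05, beside 25.4% of all genes. That gene was Smad3, a transducer of TGF-beta signals, at 25.5 ± 7.01 CPM in wild type and 44.9 ± 13.1 CPM in C234W (SD, n = 3 each). Smad2, with the next smallest p, had a log2 fold change of -0.48 (SE 0.22, edgeR adjusted p = 0.208). DESeq2 called Smad3 higher and limma-voom called 0. Without WT1A, edgeR called Smad3 higher and Acvrl1, an endothelial receptor for BMP9, lower. Of 18 junction partners 0 passed in edgeR, with 3 higher and 1 lower at an unadjusted p under 0.05, and DESeq2 called Marveld2 and Marveld3, which encode tricellulin and a relative of it, while limma-voom called 0. Both had larger means in C234W, 8.68 ± 2.83 against 3.89 ± 1.76 CPM and 15.9 ± 6.69 against 7.04 ± 3.71 CPM (SD, n = 3 each). Without WT1A, edgeR called 5 junction partners higher: Jam2, Ctnnd1, Cgn, Marveld2 and Marveld3, beside 9.13% of all genes. Tricellulin is better known from epithelia than from vessels.

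Barrier genes and the Norrin pathway, which drives retinal vessel growth through Fzd4, had 0 of 17 past the threshold in edgeR, DESeq2 and limma-voom. In edgeR 2 were at an unadjusted p under 0.05, beside 25.4% of all genes. Without WT1A, edgeR called Ndp, which encodes Norrin, and Slc2a1, a glucose transporter of barrier endothelium, higher, beside 9.13% of all genes. Slc2a1 was at 186 CPM in wild type, above Flt1 at 98.6 CPM, and the cells its RNA came from were not tested. The genes under the unadjusted p with 6 libraries were Apcdd1, an inhibitor of Wnt signalling (9.23 ± 0.58 CPM in wild type, 13.9 ± 3.43 in C234W), and Lrp5, the co-receptor of Norrin (5.75 ± 1.30 and 9.61 ± 3.25 CPM; SD, n = 3 each). Of 18 endothelial transcription factors 0 passed in edgeR, with 3 higher and 1 lower at an unadjusted p under 0.05. Erg, an ETS factor of mature endothelium, was at 2.06 CPM in WT1A, 1.08 in WT2A and 2.21 in WT2B, against 7.66 in FS3A, 3.04 in FS3B and 4.76 in FS5A. It was the 1 factor called by DESeq2, while limma-voom called 0. Without WT1A, edgeR called Ets1 higher and Hey1 lower, and not Erg. Sox18, a factor of vessel and lymphatic development, had 0.257 ± 0.18 CPM in wild type and 1.36 ± 0.53 CPM in C234W (SD, n = 3 each), at a low level throughout. The groups did not overlap for Erg or for Sox18.

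The list of other endothelial surface and secreted genes had the largest median of the lists, 0.81 on the log2 scale, against 0.02 over all genes. Of 23 tested, 0 passed in edgeR, with 10 higher and 1 lower at an unadjusted p under 0.05, and the groups did not overlap for 8, all higher in C234W, as for 12.6% of all genes. DESeq2 called 6 higher (5% of all genes), limma-voom called 0, and edgeR without WT1A called 6 of 25 higher (9.13% of all genes). Cd93, a surface glycoprotein of endothelium, was at 2.13 CPM in WT1A, 2.37 in WT2A and 1.62 in WT2B, against 8.92 in FS3A, 4.79 in FS3B and 5.37 in FS5A (log2 fold change 1.63, SE 0.35, edgeR adjusted p = 0.0535). Thbd, the thrombomodulin that restrains clotting at the vessel wall, was at 2.13 CPM in WT1A, 1.24 in WT2A and 1.55 in WT2B, against 12.2 in FS3A, 7.54 in FS3B and 3.29 in FS5A (log2 fold change 2.23, SE 0.49, edgeR adjusted p = 0.0556). For Thbd, FS5A lay nearest to wild type.

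**Figure D4:**
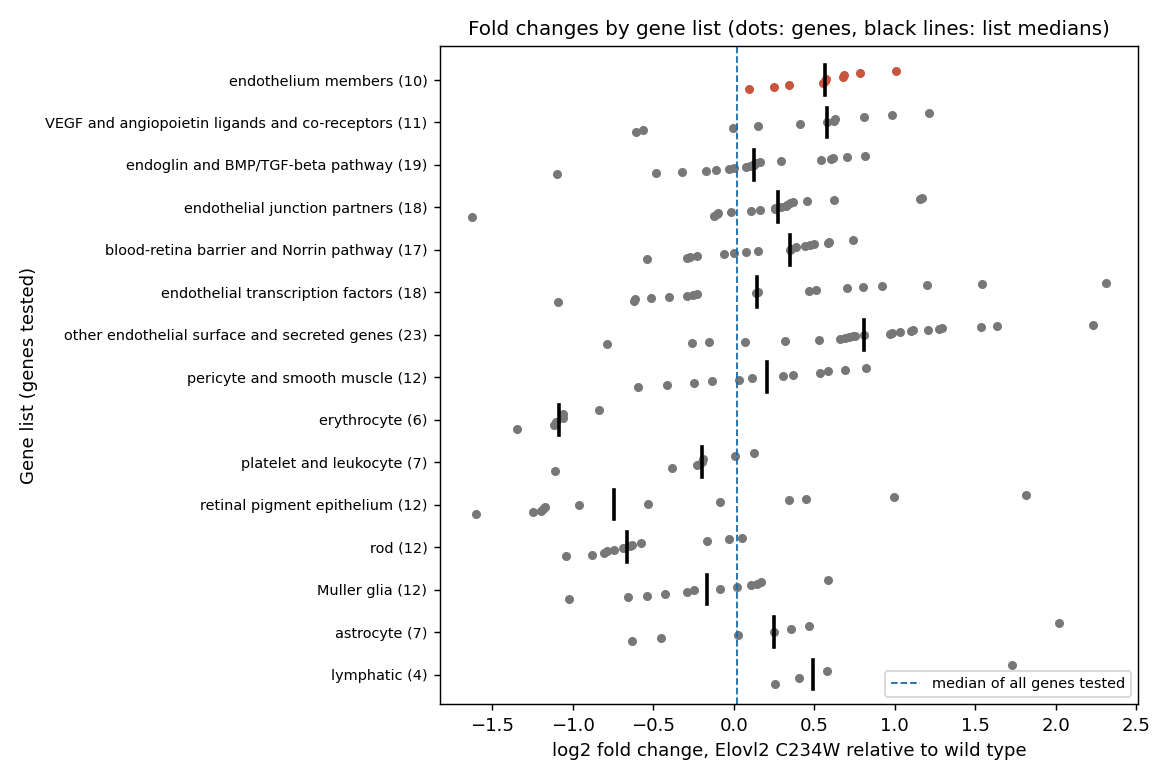
Log2 fold change, Elovl2 C234W relative to wild type, of every tested gene (dots) in the endothelial list and 14 context lists (y axis, number tested in brackets), with list medians as black lines and the median of all genes as a dashed line. The median is 0.57 for the 10 endothelial genes, 0.81 for other endothelial surface genes, 0.21 for pericyte genes and -1.08 for erythrocyte genes.

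Of 12 pericyte and smooth muscle genes 0 passed in edgeR, in DESeq2 and in limma-voom, with 0 at an unadjusted p under 0.05, and edgeR without WT1A also called 0. Fold changes were above 0 for 8 of the 12, with a median of 0.21 on the log2 scale that was 0.07 without WT1A and 0.51 without WT2A. Their summed level was 953 to 1374 CPM in wild type and 829 to 940 CPM in C234W. Most of it was Vtn, at 1015 ± 255 and 761 ± 60.6 CPM (SD, n = 3 each). The sum therefore follows Vtn and not the list as a whole, since Rgs5 was at 59.8 CPM in wild type. Vtn was highest in WT1A, at 1309 CPM, as the rod markers were. The cells that Vtn RNA came from were not tested. Acta2, the smooth muscle actin, was at 4.55 ± 1.16 and 3.03 ± 0.36 CPM (SD, n = 3 each). Among the genes with higher means in C234W, Rgs5 had a log2 fold change of 0.59 (SE 0.31) and Pdgfrb, the PDGF receptor of pericytes, one of 0.54 (SE 0.29), and the groups overlapped for both.

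Erythrocyte genes summed to 117 to 222 CPM in wild type and to 58.6 to 80.6 CPM in C234W, without overlap and opposite in sign to the endothelial median. Of 6 tested 0 passed in edgeR, with 5 lower at an unadjusted p under 0.05. DESeq2 called 5 lower, beside 7.69% of all genes, and limma-voom called 0. Without WT1A, edgeR called 3 lower, Hbb-b1, Hbb-bs and Hbb-bt, beside 9.39% of all genes. The median log2 fold change of -1.08 was -0.63 with the length trend removed and -0.67 without WT2A. Hbb-b1 was at 56.3 ± 20.5 and 27.0 ± 5.11 CPM, and Hbb-bs at 56.6 ± 20.7 and 27.2 ± 5.04 CPM (SD, n = 3 each). These haemoglobin genes are near-identical copies, so their separate levels are uncertain. Hba-a1 and Hba-a2 likewise had near-equal means, 16.2 and 16.1 CPM in wild type and 7.58 and 7.49 CPM in C234W. The erythrocyte calls are therefore fewer separate signals than their number, which the shares over all genes do not take into account.

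Platelet and leukocyte genes summed to 22.6 to 31.4 CPM in wild type and 21.5 to 26.7 CPM in C234W, and 0 of 7 tested passed in edgeR, DESeq2 or limma-voom, nor in edgeR without WT1A, with 0 at an unadjusted p under 0.05. The 2 with the smallest p were P2ry12 and Csf1r, microglial receptors, with log2 fold changes of -1.11 (SE 0.56) and -0.38 (SE 0.29). Among lymphatic genes 0 of 4 passed in edgeR, with 3 higher at an unadjusted p under 0.05, beside 25.4% of all genes in either direction. DESeq2 called Lyve1 higher (5% of all genes), as did edgeR without WT1A (9.13% of all genes), and limma-voom called 0. Lyve1, a hyaluronan receptor of lymphatic endothelium and some macrophages, was at 3.99 CPM in WT1A, 1.02 in WT2A and 2.13 in WT2B, against 7.34 in FS3A, 10.2 in FS3B and 5.98 in FS5A. Prox1, at 102 ± 6.96 and 136 ± 9.64 CPM (SD, n = 3 each), is also expressed by retinal neurons and glia, and Ccl21a had 0 counts in the 6 libraries.

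In edgeR, of the markers of non-vascular cells 0 of 12 rod, 0 of 12 Müller glia, 0 of 12 pigment epithelium and 0 of 7 astrocyte genes passed, with 6, 3, 2 and 1 at an unadjusted p under 0.05, beside 25.4% of all genes. DESeq2 called 6, 1, 0 and 0, all lower, beside 7.69% of all genes. The limma-voom calls were 1, 0, 0 and 0, beside 1.63% of all genes in either direction. Without WT1A, edgeR called 4 rod genes lower (Pde6g, Sag, Prph2 and Rom1). It called Rlbp1 lower and Sox9 higher in Müller glia, and 0 in pigment epithelium and astrocytes. Over all genes that fit called 9.39% lower and 9.13% higher. Fold changes were above 0 for 1 rod, 5 Müller glia, 4 pigment epithelium and 5 astrocyte genes, with medians of -0.66, -0.16, -0.75 and 0.25 on the log2 scale. Without WT1A the medians were -0.39, -0.36, 0.73 and 0.42, so that of pigment epithelium turned. Pde6g and Prph2, of the rod outer segment, had log2 fold changes of -1.04 (SE 0.21) and -0.88 (SE 0.21). In Müller glia Rlbp1 and Apoe had -1.02 (SE 0.23) and -0.54 (SE 0.20), while Aqp4 had 0.59 (SE 0.31). Best1, a chloride channel of pigment epithelium, had 1.81 (SE 0.55) at under 1 CPM in wild type, and Rrh had -0.53 (SE 0.22). Gfap, a marker of astrocytes and reactive glia, was at 46.8 CPM in WT1A, 25.3 in WT2A and 20.4 in WT2B, against 248 in FS3A, 99.4 in FS3B and 26.5 in FS5A. S100b had -0.45 (SE 0.26). FS3A, the highest library for Gfap, was also the highest library for 4 endothelial members. The part of any of these cell markers in the endothelial values was not tested.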

How the data were processed

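The authors deposited estimated counts for each gene with no normalization, per the file headers; values come in steps of 0.5. Alignment to mm10 used STAR 2.7.8a, per the submitters' processing notes. HOMER (4.11) counted tags in exons, by strand, for 1 isoform per locus, per the file headers and the series' design text, so a value depends on which isoform was kept. Sample columns not used numbered 0. Counts were rounded to whole numbers. Genes were kept by filterByExpr, scaled by TMM and tested in edgeR (4.0.16, R 4.3.3) with glmQLFit (robust) and glmQLFTest on genotype alone, with Benjamini-Hochberg adjustment. The SE is the absolute log2 fold change divided by the square root of F. Transcript length is that of the deposited table. As a check for duplicates, the smallest chi-square per degree of freedom between libraries was 9.97 (WT2A and WT2B). The next smallest was 30.6 (FS3A and FS5A), and WT1A was at 74.2 from WT2A and 65.9 from WT2B. No libraries were merged. The check does not show that WT2A and WT2B came from separate animals.

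The members and gene lists were chosen with earlier results of these data known. The text names the 10 members, in each list the 2 genes with the smallest p where none passed, and the 5 genes nearest in profile. Not every gene this rule names is reported here. Genes such as Jam2, named because a count of 5 or fewer calls needed them, were chosen after their values were seen. Other settings were scaling by RLE, by the upper quartile or by total count; no filter; at least 1 CPM in 3 samples; DESeq2 (1.42.0); limma-voom (limma 3.58.1); removal of a loess trend on transcript length (span 0.3); summing libraries whose names share a number; and leaving out each library. The scripts were tested on simulated data. There, edgeR called 36% of the genes given a 2-fold difference, DESeq2 48% and limma-voom 30%. At 4-fold the shares were 86%, 89% and 86%. In edgeR 13 of its 135 calls were wrong, in DESeq2 42 of 179 and in limma-voom 12 of 128. A gene not called in edgeR may therefore still differ, and calls by DESeq2 alone are less certain. Pdgfrb, Aqp4 and the values of Rgs5 beside the pericyte genes, and list genes called in one alternative alone, fall outside the rule for named genes and were chosen after their values were seen.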

Additional observations from a re-analysis of the deposited data

How the results depend on the processing

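The count of endothelial genes past the threshold was 0 in the edgeR fit of 6 libraries. It was 1 with no filter on low counts (Esam), 3 in DESeq2 (Pecam1, Esam and Flt1), and between 0 and 2 over the fits leaving out 1 library, with the 2 (Esam and Flt1) without WT1A. The other alternatives gave 0. Their median log2 fold change kept its sign under all 15 alternatives, from 0.40 without WT1A to 0.78 without WT2A, with 0.44 when the length trend was removed; scaling to total counts gave 0.75 while moving the median of all genes to 0.20. The count over all genes past the threshold also changed with the setting. It was 215 in the edgeR fit, 0 with RLE, upper-quartile or total count scaling, 0 with the length trend removed, 0 with same-number libraries summed, 353 with no filter, 1754 in DESeq2, and between 0 and 2775 with 1 library left out, the 2775 being without WT1A. Genes under an unadjusted p of 0.05 numbered 3729 in the edgeR fit. They numbered 3753 with RLE, 3805 with upper-quartile and 4349 with total count scaling, and 1799 with same-number libraries summed. The edgeR adjusted p of Esam was 0.0520, 0.0533, 0.0534 and 0.0513 under the 4 scalings, close to the threshold in each. The cause of the shifts in the count past the threshold was not tested, beyond the smaller number of samples in the summed fit. Without WT1A, wild type was WT2A and WT2B, the most alike pair of libraries. Among single members, the direction reversed 4 times. With 1 library left out, Tek ranged from -0.229 (without WT1A) to 0.814 (without WT2A) and Tie1 from -0.33 (without WT1A, and -0.0921 without FS3A) to 0.496 (without WT2A), and Tie1 was at -0.0717 with the length trend removed. With 0 members called in 6 libraries, a call could only be gained, which happened 6 times. No paired analysis was possible because the columns carry no replicate number of the labels. Depth limits the rarest members most: Tek and Tie1 had 13 and 15 counts in WT1A.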
